A study of Homo sapiens with 8 samples.

Results

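The 8 genes described here are aldo-keto reductases, enzymes that reduce aldehydes and ketones with NADPH, together with sorbitol dehydrogenase. They were chosen by symbol (AKR1B1, AKR1B10, AKR1A1, AKR1C1, AKR1C2, AKR1C3, AKR7A2 and SORD) from the 19479 genes listed in the deposited tables, and all 8 were found. RNA had been sequenced from AC16, an immortal human line that descends from heart muscle cells of the adult ventricle fused to a fibroblast line. It was kept for at least 3 passages in medium with 5 mM glucose or in medium with 25 mM glucose. The 5 mM and 25 mM groups stayed at that glucose, and the 5 to 50 mM and 25 to 50 mM groups received 45 mM or 25 mM more for the last 24 h. Each of the 4 groups holds 2 libraries. All 4 groups are the same unmodified line, and no library had an equally osmotic control sugar. The submitters describe the replicates as technical, so the p-values measure the spread between libraries and not between independent cultures.

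In the polyol pathway AKR1B1, aldose reductase, turns glucose into sorbitol, and SORD oxidises sorbitol to fructose. The pathway carries more glucose when glucose is high, and AKR1B1 is a textbook target of NFAT5, the transcription factor of the hyperosmotic response. The AKR1C enzymes are hydroxysteroid dehydrogenases that also reduce lipid aldehydes, and AKR1C1, AKR1C2, AKR1C3 and AKR1B10 are known targets of NRF2, the main regulator of antioxidant genes.

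Library totals recovered from the tables ran from 21538898 to 27372851 reads. Levels are RPKM, which divides reads by gene length and by the library's total, and 3 reads on the coding length of AKR1B1 corresponded to 0.115 to 0.147 RPKM. Of 14 cardiomyocyte markers, 3 reached 1 RPKM in any library, and MYL2 and NKX2-5 were at 0 in all 8. Their summed level was 1.34 to 4.30 RPKM, so the markers that define cardiomyocytes were near 0 or absent. All 10 fibroblast markers reached 1 RPKM, with sums of 2273 to 2566 RPKM in the libraries kept at 5 mM and 2954 to 3260 RPKM in those kept at 25 mM. COL1A1 alone ran from 963 to 1634 RPKM, and the 10 did not all move the same way between the cultures. In bulk RNA, fewer expressing cells and less RNA per cell cannot be told apart.

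AKR1B1 (Entrez Gene 231, chromosome 7, 134442350 to 134459239 in GRCh38) was the most abundant of the 8 genes in every library. At 5 mM it stood at 559 and 626 RPKM, and at 5 to 50 mM at 1109 and 1074 RPKM. At 25 mM it stood at 138 and 149 RPKM, and at 25 to 50 mM at 159.5 and 149.5 RPKM. The 4 libraries kept at 5 mM were thus all above the 4 kept at 25 mM, and the 5 to 50 mM pair was above every other library. In rank among all listed genes, AKR1B1 was 188th and 213th at 5 mM, 91st and 97th at 5 to 50 mM, and between 916th and 1095th in the libraries kept at 25 mM. These values rest on 3501 to 24629 reads per library, so counting error is small beside the rise from 5 mM and the gap between the cultures. It is not small beside the step from 25 to 50 mM. There the 95% Poisson intervals of the replicate 3 libraries, which cover counting error only, were 144.3 to 153.8 RPKM at 25 mM and 144.6 to 154.5 RPKM at 25 to 50 mM.

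**Figure D1:**
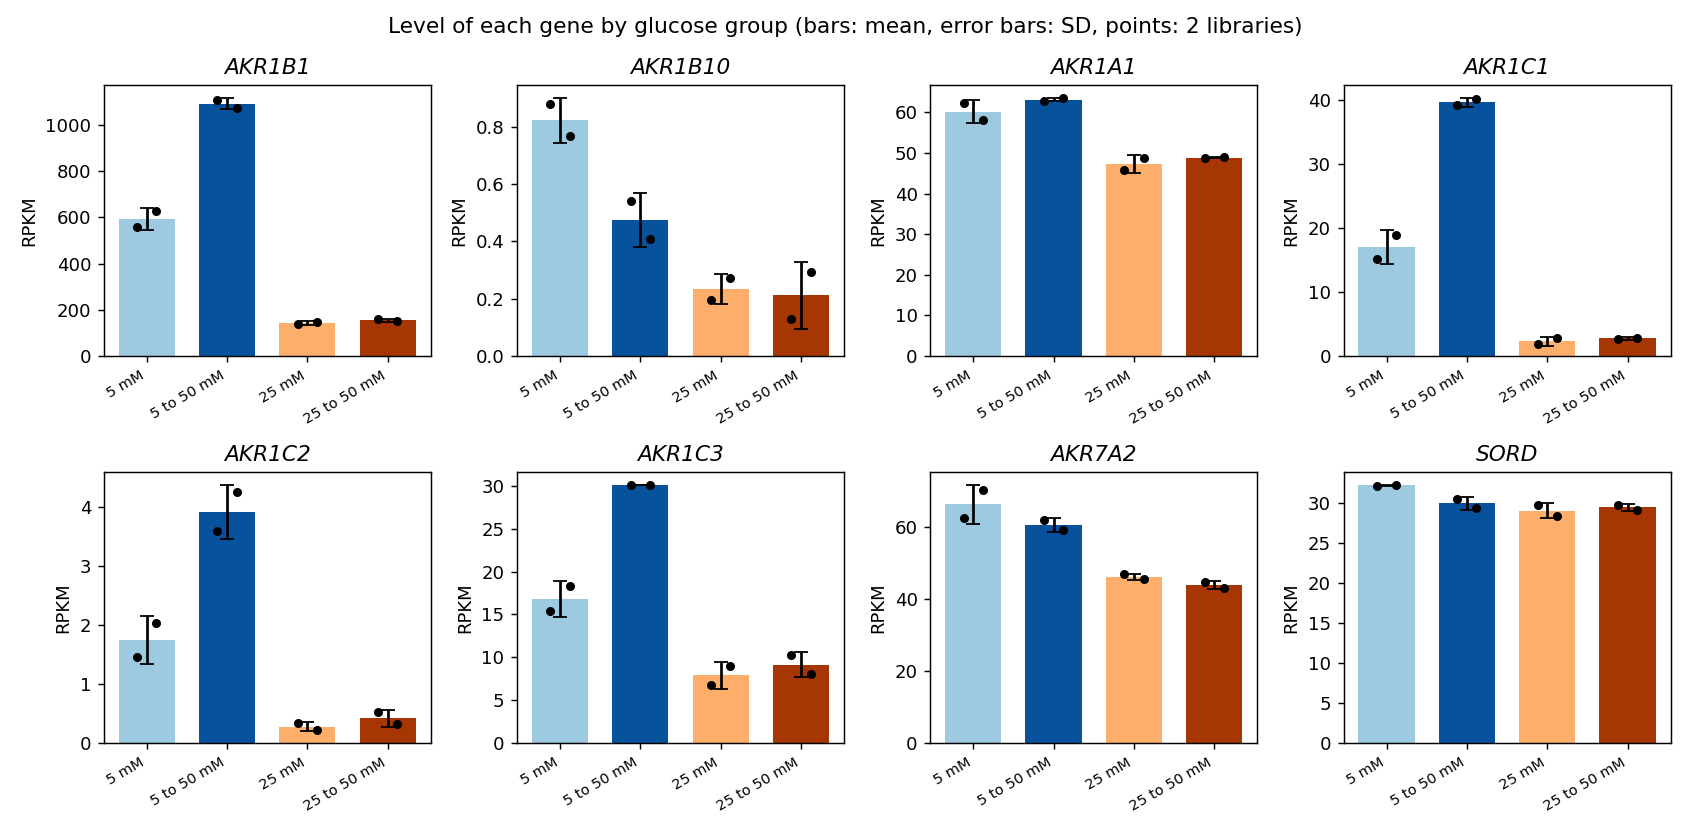
RPKM (vertical axis, from 0) of the 8 genes in the 4 glucose groups (horizontal axis); bars are means, error bars SD, and points the 2 libraries of a group. Group means of AKR1B1, AKR1A1, AKR1C1, AKR1C2 and AKR1C3 share the order 5 to 50 mM, 5 mM, 25 to 50 mM, 25 mM. The 25 to 50 mM and 25 mM libraries overlap in all of these genes but AKR1B1. SORD lies between 28.4 and 32.3 RPKM throughout.

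Raising glucose to 50 mM in cells kept at 5 mM tested the response to added glucose from a low start. AKR1B1 rose from 592 ± 47.4 to 1092 ± 24.7 RPKM (SD, n = 2 in each group). The fitted log2 change was 0.88 (SE 0.07, adjusted p = 0.0269 by limma over all genes tested), or 1.84-fold. Fitted limma changes and their folds, here and below, are of RPKM + 1, which understates changes of low genes. AKR1C1 rose as well, so that 2 of the 8 members were called, both higher, with 7 having passed the filter on low values. Of all 11849 genes tested, 0.312% were called higher and 0.0169% lower, and 1246 had an unadjusted p under 0.05 by limma. By the size of its fitted change AKR1C1 was 8th highest of these 11849 genes, AKR1B1 21st, AKR1C2 23rd and AKR1C3 33rd. The median log2 change over all genes tested was -0.03. AKR1A1, AKR7A2 and SORD did not pass, with values given below. The calls of AKR1B1 and AKR1C1 were lost when either 5 to 50 mM library was left out (adjusted p = 0.101 for both genes without replicate 1; 0.111 and 0.12 without replicate 2), although their log2 changes stayed at 0.86 to 0.91 and at 1.17 to 1.20. They were also lost with limma fitted without a trend (adjusted p = 0.0876 for both) or with no filter (0.114 and 0.145).

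From 25 to 50 mM 0 of the 6 tested members passed limma, 0 had an unadjusted p under 0.05 and 0 passed voom. Of all 11422 genes tested, 0.00876% were called and 1057 had an unadjusted p under 0.05 by limma. AKR1B1 had a log2 change of 0.11 (95% interval -0.04 to 0.25, adjusted p = 0.581), an interval whose upper end lies under the lower end of the interval from 5 mM, 0.71 to 1.06. The difference between the responses had a fitted log2 value of 0.78 for AKR1B1 (SE 0.10, unadjusted p = 5.27e-05, adjusted p = 0.126) and did not pass. For AKR1C1 it was 0.99 (SE 0.22, adjusted p = 0.406), for AKR1C2 0.70 (adjusted p = 0.574) and for AKR1C3 0.61 (adjusted p = 0.75). In this comparison 0.0251% of the 11941 genes tested were called (0.0167% higher and 0.00837% lower), and 0 of them were members. An unadjusted limma p under 0.05 was reached by 4 members and by 721 of all genes tested, and voom called 0 members. Of these 4, AKR1C2 was too low to be tested from 25 to 50 mM. It lay at 0.216 to 0.517 RPKM in libraries kept at 25 mM, where adding 1 RPKM shrinks changes. AKR1C1, AKR1C2 and AKR1C3 may also share reads, so the 4 are not independent. Different responses of these genes from 5 mM and from 25 mM were thus not established over all genes tested.

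**Figure D2:**
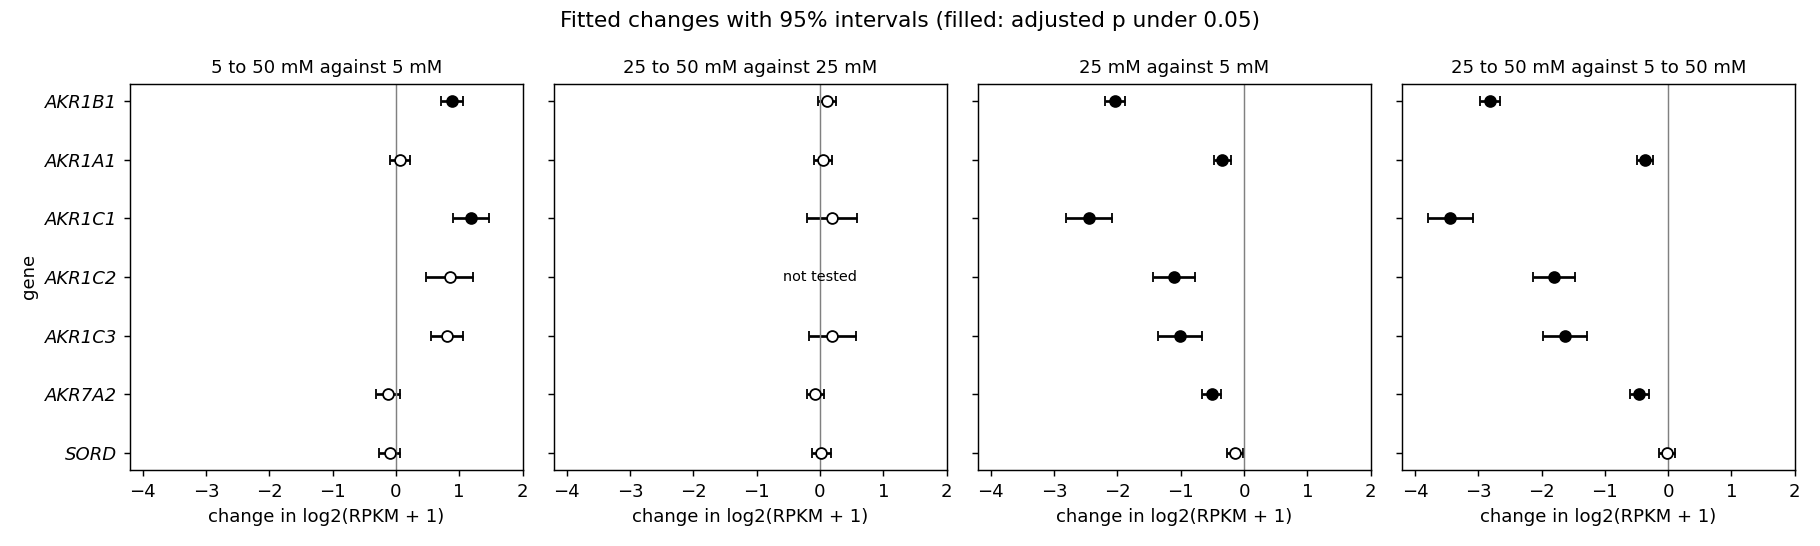
Fitted change in log2(RPKM + 1) (horizontal axis) of the 7 members that passed the filter (vertical axis) in 4 comparisons, 1 per panel; points are estimates, bars 95% intervals from limma, and filled points have an adjusted p under 0.05. AKR1B1 is at 0.88 and 0.11 in the panels of the rises and at -2.04 and -2.81 in the panels that compare the cultures.

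The larger gap was between the cultures kept at 25 mM and at 5 mM. AKR1B1 was lower at 25 mM by a log2 value of -2.04 (SE 0.07, adjusted p = 1.49e-06 by limma on all 8 libraries), which is 4.10-fold lower. At 50 mM, in cells that differed in where they started, it was 7.03-fold lower after maintenance at 25 mM (log2 value -2.81, SE 0.07, adjusted p = 4.37e-07). Of the 7 tested members, 6 were called lower in each of these comparisons and 0 higher. Among all 11941 genes tested, 39.1% were called at 25 mM against 5 mM (22.1% lower and 17.0% higher) and 41.4% at 50 mM (23.3% lower and 18.1% higher), so calls were common here. The share of all genes whose libraries kept at 5 mM all lay above those kept at 25 mM was not counted. AKR1C2 reached 1 RPKM only in libraries kept at 5 mM, and its call could therefore go only 1 way. The cultures of each maintenance glucose also fill a table of their own, and the glucose cannot be told apart from any other difference between these sets of cultures. Summed markers moved with this split as well: the 5 immune markers, of which CD3E was at 0 in all libraries and CD68 made up most of the sum, summed to 216 to 253 RPKM in libraries kept at 5 mM and 86.4 to 93.0 RPKM in those kept at 25 mM. The 5 epithelial markers summed to 208 to 235.5 and 171 to 186 RPKM. KRT18 made up most of that sum (150.5 to 212.4 RPKM), and EPCAM and CDH1 stayed under 1 RPKM in all libraries. Of the 10 fibroblast markers, 6 were called higher and 2 lower at 25 mM against 5 mM, and 4 higher and 3 lower at 50 mM. The part of these shifts in the results was not tested.

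AKR1C1, AKR1C2 and AKR1C3 lie side by side on chromosome 10 (4963415 to 4983283, 4987775 to 5018000 and 5048781 to 5107686 in GRCh38). Their coding sequences are near copies: AKR1C1 and AKR1C2 are identical at 98.0% of 972 bases, and AKR1C3 matches them at 91.5% and 91.0%. The longest run without a difference between AKR1C1 and AKR1C2 is 189 bases. The window of 60 coding bases in which they differ most, bases 103 to 162 from the first base of the start codon in GENCODE transcripts, is shown because reads can be assigned to a paralog only over such differences. Capitals mark the 10 bases of this window that differ, out of 19 in all.
AKR1C1: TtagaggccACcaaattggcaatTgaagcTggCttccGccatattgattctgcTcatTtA
AKR1C2: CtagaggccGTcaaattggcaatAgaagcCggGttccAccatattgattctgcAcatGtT
Of all stretches of 50 coding bases in AKR1C1, 54.5% occur unchanged in a transcript of another gene, mostly AKR1C2 (51.8%), and of stretches of 100 bases 21.0% do. The shares were 57.2% and 26.7% for AKR1C2 and 23.0% and 9.7% for AKR1C3. How the authors counted reads that fit several genes is not given in the sources used here, so the split between the 3 genes is uncertain.

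**Figure D3:**
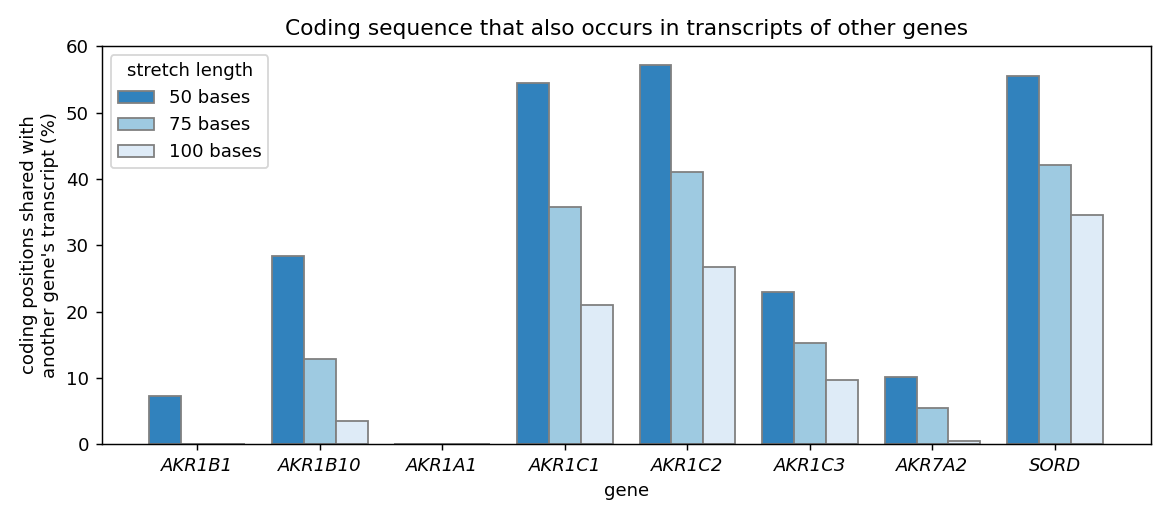
Percent of coding positions (vertical axis) whose stretch of 50, 75 or 100 bases also occurs in a transcript of another gene in GENCODE release 29, for each of the 8 genes (horizontal axis). AKR1C1, AKR1C2 and SORD exceed 50% at 50 bases, and AKR1A1 shares none.

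AKR1C1 (Entrez Gene 1645), which inactivates progesterone, was at 15.1 and 18.8 RPKM at 5 mM and at 39.1 and 40.1 RPKM at 5 to 50 mM. It was at 1.81 and 2.80 RPKM at 25 mM and at 2.60 and 2.88 RPKM at 25 to 50 mM. The groups that started from 5 mM did not overlap with each other or with the others, while the 25 mM and 25 to 50 mM libraries overlapped. It rose 2.27-fold from 5 to 50 mM (log2 change 1.18, SE 0.11, adjusted p = 0.0399). Its change from 25 to 50 mM did not pass (log2 change 0.19, 95% interval -0.20 to 0.59, adjusted p = 0.696) and was -0.03 without 25 mM replicate 1. It was 5.46-fold lower at 25 mM than at 5 mM (adjusted p = 2.3e-05) and 10.9-fold lower at 25 to 50 mM than at 5 to 50 mM (adjusted p = 4.09e-06). In RPKM, with nothing added, its group means spanned 17.1-fold, the widest span of the 8 genes.

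AKR1C3 (Entrez Gene 8644), which forms testosterone and prostaglandin F, was at 15.3 and 18.3 RPKM at 5 mM and at 30.2 RPKM in both 5 to 50 mM libraries. It was at 6.76 and 9.0 RPKM at 25 mM and at 10.2 and 8.09 RPKM at 25 to 50 mM. From 5 to 50 mM the log2 change was 0.81 (95% interval 0.56 to 1.06) and narrowly missed the threshold (adjusted p = 0.0639). It passed with quantile normalization (adjusted p = 0.0253), with median centring (0.0285) and with voom on the recovered reads (0.0469). By limma it did not pass without a filter (adjusted p = 0.189), without a trend (0.117), in a joint fit of all 8 libraries (0.0576) or with a replicate block (0.341). Of 14 alternatives, 9 left it uncalled. From 25 to 50 mM the log2 change was 0.20 (95% interval -0.18 to 0.57). AKR1C3 was 2.02-fold lower at 25 mM than at 5 mM (adjusted p = 0.00144) and 3.09-fold lower at 50 mM (adjusted p = 0.000134).

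AKR1C2 (Entrez Gene 1646), which inactivates dihydrotestosterone, was the least abundant of the trio. It was covered by 32 and 57 reads at 5 mM (1.45 and 2.04 RPKM) and by 86 and 101 reads at 5 to 50 mM (3.60 and 4.25 RPKM). At 25 mM it had 9 and 6 reads (0.33 and 0.216 RPKM), and at 25 to 50 mM 13 and 8 reads (0.517 and 0.313 RPKM). Every library kept at 5 mM was above every library kept at 25 mM. From 5 to 50 mM the log2 change was 0.85 (95% interval 0.48 to 1.22, adjusted p = 0.159). The log2 difference of 25 mM from 5 mM, -1.10 on the log2(RPKM + 1) scale, was -2.31 with a pseudocount of 0.1 and -2.64 with voom, since adding 1 RPKM shrinks changes in genes this low.

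The makeup of the trio differed between the cultures, as the plot of shares shows. In libraries kept at 5 mM, AKR1C1 made up 47.3% to 53.8% of the summed RPKM of the 3 genes. In libraries kept at 25 mM it made up 19.5% to 25.6%, and AKR1C3 made up 71.7% to 76.6%. The ratio of AKR1C1 to AKR1C3 was 1.01 ± 0.0309 at 5 mM, 1.31 ± 0.0233 at 5 to 50 mM, 0.29 ± 0.0304 at 25 mM and 0.305 ± 0.0723 at 25 to 50 mM (SD, n = 2). The RPKM of the 3 genes were also summed into 1 value. This sum depends less on how reads were split among them, but still somewhat, since their lengths differ (972, 1023 and 1104 bases). It also depends on whether shared reads were dropped or counted more than once. The log2 change of the sum from 5 to 50 mM was 1.04 (adjusted p = 0.0423 by limma), and 25 mM differed from 5 mM by -1.68 (adjusted p = 0.000117). Of the genes that flank the trio, AKR1E2 stood at 3.51 ± 0.0207, 3.75 ± 0.0763, 3.37 ± 0.365 and 2.87 ± 0.589 RPKM at 5, 5 to 50, 25 and 25 to 50 mM, with no call in any of the 5 comparisons, and AKR1C4, a liver enzyme, had 0 reads in all libraries.

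**Figure D4:**
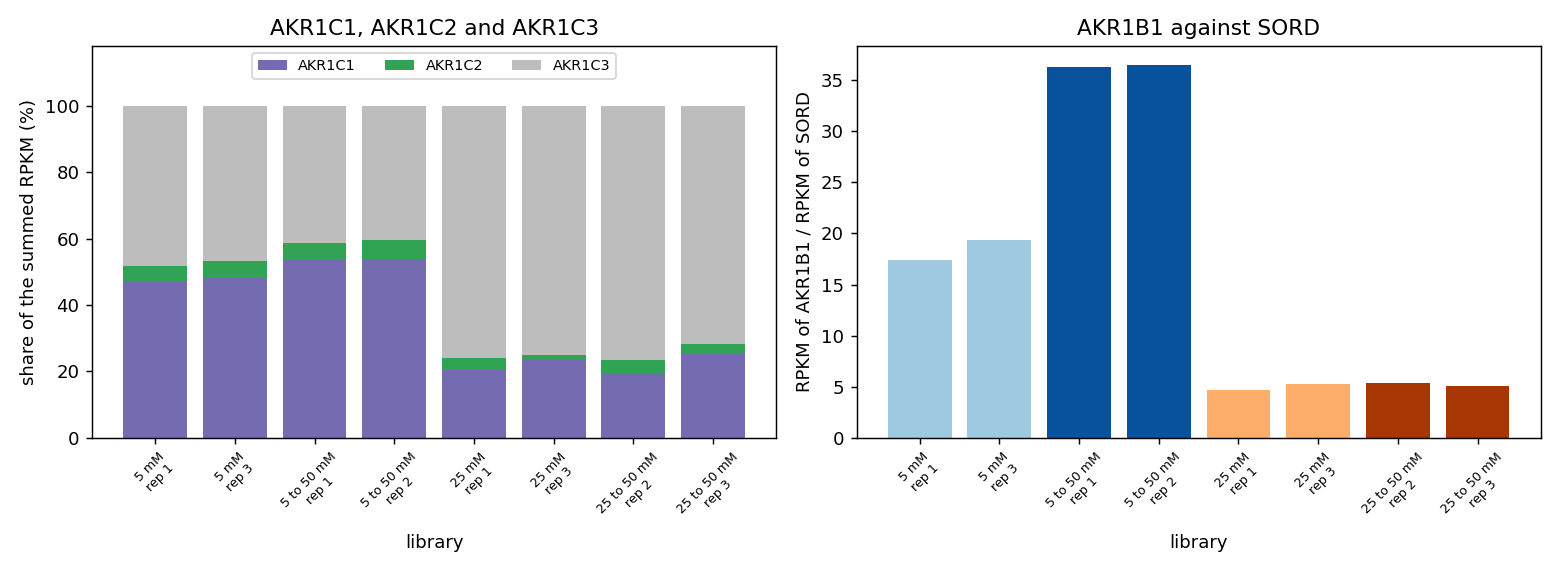
Left, percent of the summed RPKM of AKR1C1, AKR1C2 and AKR1C3 (vertical axis) in each of the 8 libraries (horizontal axis); right, ratio of the RPKM of AKR1B1 to that of SORD in the same libraries. AKR1C1 holds 47.3% to 53.8% in libraries kept at 5 mM and 19.5% to 25.6% in those kept at 25 mM, and the ratio runs from 4.64 to 36.5.

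SORD (Entrez Gene 6652, chromosome 15, 45023195 to 45077185), the second enzyme of the polyol pathway, stayed within a narrow range. It was at 32.2 and 32.3 RPKM at 5 mM, 30.6 and 29.4 RPKM at 5 to 50 mM, 29.7 and 28.4 RPKM at 25 mM, and 29.9 and 29.2 RPKM at 25 to 50 mM. The 5 mM pair was highest, and the other groups overlapped. Its log2 change was -0.10 from 5 to 50 mM (95% interval -0.26 to 0.06), 0.02 from 25 to 50 mM (-0.12 to 0.17) and -0.14 for 25 mM against 5 mM (-0.27 to -0.02, adjusted p = 0.0732), and none of these passed. AKR1B1 exceeded SORD 18.4 ± 1.41 times at 5 mM, 36.4 ± 0.184 times at 5 to 50 mM, 4.94 ± 0.421 times at 25 mM and 5.23 ± 0.162 times at 25 to 50 mM (ratio of RPKM, SD, n = 2). Of stretches of 50 coding bases in SORD, 55.5% occur in its pseudogene SORD2P, so its level may hold or lack shared reads.

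The remaining members are general or detoxifying reductases. AKR1A1 (Entrez Gene 10327, chromosome 1, 45550826 to 45570049), a broad aldehyde reductase, was at 62.2 and 58.2 RPKM at 5 mM and 62.9 and 63.5 RPKM at 5 to 50 mM. It was at 45.7 and 48.9 RPKM at 25 mM and 48.8 and 49.0 RPKM at 25 to 50 mM. Its log2 change was 0.07 from 5 to 50 mM (95% interval -0.09 to 0.23) and 0.05 from 25 to 50 mM (-0.09 to 0.19). It was 1.27-fold lower at 25 mM than at 5 mM (adjusted p = 0.00237) and 1.29-fold lower at 50 mM (adjusted p = 0.00165). AKR7A2 (Entrez Gene 8574, chromosome 1, 19302708 to 19312146), which reduces succinic semialdehyde and aflatoxin dialdehyde, was at 62.5 and 70.2 RPKM at 5 mM and 61.9 and 59.2 RPKM at 5 to 50 mM. It was at 46.8 and 45.5 RPKM at 25 mM and 44.6 and 43.1 RPKM at 25 to 50 mM. Its log2 change was -0.13 from 5 to 50 mM (95% interval -0.32 to 0.07) and -0.07 from 25 to 50 mM (-0.20 to 0.06). It was 1.43-fold lower at 25 mM than at 5 mM (adjusted p = 0.000699) and 1.37-fold lower at 50 mM (adjusted p = 0.00115). For both genes, every library kept at 5 mM was above every library kept at 25 mM, and neither passed the test in a rise. Such separation was not counted over all genes, of which 22.1% were called lower at 25 mM than at 5 mM.

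AKR1B10 (Entrez Gene 57016, chromosome 7, 134527567 to 134541412), a retinal reductase of the gut that neighbours AKR1B1 and matches it at 75.8% of aligned coding bases, stayed under the filter and was not tested. It was covered by 18 and 20 reads at 5 mM (0.879 and 0.768 RPKM), 12 and 9 at 5 to 50 mM, 5 and 7 at 25 mM, and 3 and 7 at 25 to 50 mM. Unlike AKR1B1, its level at 5 to 50 mM (0.474 ± 0.0941 RPKM) was under that at 5 mM (0.824 ± 0.0781 RPKM). The 95% Poisson intervals of the single libraries, which cover counting error only, overlapped between these groups: 0.521 to 1.39 RPKM for 5 mM replicate 1 and 0.279 to 0.944 RPKM for 5 to 50 mM replicate 1. The next gene of this cluster, AKR1B15, had 1 read in all 8 libraries together.

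The promoters of AKR1B1 and AKR1C1, the members that rose from 5 to 50 mM, and of AKR1C3, a paralog of AKR1C1, are shown from RefSeq (GRCh38.p14, 250 bases before to 50 after the annotated start). AKR1B1 lies at chr7:134459051-134459350 on the minus strand, AKR1C1 at chr10:4963165-4963464 and AKR1C3 at chr10:5048531-5048830 on the plus strand. Capitals mark the CCAAT box (CCAAT on either strand).
AKR1B1: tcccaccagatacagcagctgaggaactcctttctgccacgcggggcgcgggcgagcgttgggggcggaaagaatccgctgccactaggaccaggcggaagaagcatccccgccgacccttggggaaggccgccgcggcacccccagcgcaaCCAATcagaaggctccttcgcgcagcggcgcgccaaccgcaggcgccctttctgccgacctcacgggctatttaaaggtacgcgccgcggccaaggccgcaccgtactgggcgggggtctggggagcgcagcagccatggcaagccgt
AKR1C1: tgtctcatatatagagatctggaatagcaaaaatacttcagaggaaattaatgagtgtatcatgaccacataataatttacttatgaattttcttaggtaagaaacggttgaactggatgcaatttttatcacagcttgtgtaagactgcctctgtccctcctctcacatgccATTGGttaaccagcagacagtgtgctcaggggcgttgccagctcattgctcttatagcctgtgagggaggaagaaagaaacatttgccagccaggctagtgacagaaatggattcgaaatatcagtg
AKR1C3: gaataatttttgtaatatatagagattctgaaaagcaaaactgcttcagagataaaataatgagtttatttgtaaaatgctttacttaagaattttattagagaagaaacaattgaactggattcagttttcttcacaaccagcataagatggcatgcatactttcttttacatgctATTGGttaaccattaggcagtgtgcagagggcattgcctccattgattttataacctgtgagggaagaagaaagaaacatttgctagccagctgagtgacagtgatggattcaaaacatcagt
The AKR1C1 window matches that of AKR1C2 at 93.5% and that of AKR1C3 at 72.8% of aligned positions. Each of these windows and that of AKR1C2 holds 1 CCAAT box, as do 34.6% of 35116 such windows in the RefSeq table, while those of AKR1A1 and AKR7A2 hold 0. The windows of AKR1B1, AKR1C1, AKR1C2, AKR1C3 and AKR1A1 hold no match to the antioxidant response element (TGACNNNGC, in 13.3% of all windows), the AP-1 motif (TGAGTCA, in 4.9%) or the NFAT5 core (TGGAAA, in 20.7%) on either strand. AKR7A2 had 3 matches to the first of these and 0 to the others. Sites further from the start were not searched.

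Genes whose level tracked AKR1B1 and AKR1C1 were sought among 1925 genes whose mean reached 5 RPKM and whose highest and lowest group means of log2(RPKM + 1) lay at least 0.5 apart. The genes most like AKR1B1 over the 8 libraries were TINAGL1, a secreted matrix protein (Pearson r = 0.998), IRAK2, PPP1R18, the cytokine IL6 and the matrix protein MFAP4. IL6 had group means of 48.3 RPKM at 5 mM and 85.9 RPKM at 5 to 50 mM, and of 7.73 and 7.71 RPKM in the groups kept at 25 mM. MFAP4 was also the gene most like AKR1C1 (r = 0.997), followed by HIST1H2AC, APOL2, the interferon-induced GBP1 and IRAK2. AKR1B1 and AKR1C1 correlated with each other at r = 0.997. All such values are dominated by the gap between the cultures that the 8 libraries share, and they are given as a description.

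Of 22 tested NRF2 regulators and targets, limma called 0 from 5 to 50 mM (median log2 change 0.03, against -0.03 over all genes). An unadjusted p under 0.05 was reached by 5 of them, beside 1246 of all 11849 genes. NQO1, the quinone reductase often used to read NRF2 activity, averaged 529 ± 43.1 RPKM in the 5 mM group and 544 ± 0.472 RPKM in the 5 to 50 mM group (log2 change 0.04, adjusted p = 0.895). At 25 mM against 5 mM 4 of the 22 were higher and 7 lower, beside 17.0% and 22.1% of all genes. NQO1 was 1.58-fold higher at 25 mM (837 ± 34.6 RPKM, adjusted p = 0.000142) and TXNRD1, thioredoxin reductase, 1.36-fold higher (adjusted p = 0.000194), while AKR1C1 and AKR1B1 were lower there. HMOX1, heme oxygenase, was 2.22-fold lower (adjusted p = 0.000528) and FTL, ferritin light chain, 1.64-fold lower (adjusted p = 6.03e-05).

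Of 9 tested NFAT5 osmotic genes, limma called 1 higher from 5 to 50 mM, beside 0.312% of all genes (median log2 change of the list 0.23). An unadjusted p under 0.05 was reached by 5 of the 9, beside 1246 of all 11849 genes. Among these 5, HSPA4L fell (log2 change -0.29, adjusted p = 0.342). The gene called was the kinase SGK1, which went from 30.7 ± 0.779 to 56.8 ± 2.48 RPKM (1.82-fold, adjusted p = 0.0269). SLC38A2, an amino acid transporter, had a log2 change of 0.43 (adjusted p = 0.0674) and S100A4, a calcium-binding protein, of 0.42 (adjusted p = 0.0743), and neither passed. NFAT5 itself had a log2 change of -0.002 (adjusted p = 0.997), SLC5A3, the inositol transporter, 0.31 (adjusted p = 0.436) and SLC6A6, the taurine transporter, 0.14 (adjusted p = 0.665). SLC6A12, the betaine transporter, had group means of 0.0351 and 0.186 RPKM at 5 and 5 to 50 mM and was at 0 in all libraries kept at 25 mM. From 25 to 50 mM limma called 0 of the 9 (4 at an unadjusted p under 0.05, beside 1057 of all 11422 genes). At 25 mM against 5 mM 3 of the 9 were lower and 0 higher, beside 22.1% and 17.0% of all genes. Among the 3 was S100A4 (2.11-fold, adjusted p = 0.000205).

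Of 13 tested genes of fructose and sorbitol handling, limma called 0 from 5 to 50 mM, and 0 of 12 from 25 to 50 mM. An unadjusted p under 0.05 was reached by 1 and 4 of these, beside 1246 of 11849 and 1057 of 11422 over all genes. At 25 mM against 5 mM 8 were lower and 1 higher (median log2 difference -0.37, against -0.004 over all genes, of which 22.1% were called lower and 17.0% higher). Of the 8, SLC2A5, a fructose transporter, reached 1 RPKM only in libraries kept at 5 mM, and its call could go only 1 way. KHK, ketohexokinase, which phosphorylates fructose, was 1.88-fold lower in RPKM + 1 (3.67 ± 0.478 at 5 mM and 1.48 ± 0.0192 RPKM at 25 mM, adjusted p = 0.000636). HK2, hexokinase, was 1.84-fold lower (adjusted p = 5e-05) and SLC2A1, the main glucose transporter, 1.47-fold lower (adjusted p = 0.000128). DCXR, which reduces xylulose to xylitol, was 1.44-fold higher (adjusted p = 0.0101).

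Of 15 genes that supply NADPH, the cofactor of these reductases, limma called 1 higher from 5 to 50 mM, beside 0.312% of all genes. From 25 to 50 mM it called 0 (0 at an unadjusted p under 0.05, beside 1057 of all 11422 genes). The gene that rose was ME1, malic enzyme, from 31.2 ± 0.643 to 49.1 ± 1.33 RPKM (1.56-fold, adjusted p = 0.0411). At 25 mM against 5 mM 3 were higher, among them TKT, transketolase (1.29-fold, adjusted p = 0.00188), and 4 were lower, among them PGD (1.15-fold, adjusted p = 0.00818), beside 39.1% of all genes called in either direction. Unlike the tested AKR1 members, ME1 was higher at 25 mM than at 5 mM (1.30-fold, adjusted p = 0.00229). At 50 mM, ME1 was lower after maintenance at 25 mM (1.29-fold, adjusted p = 0.00231 by limma), as those members were. Of 3 tested further aldo-keto reductases, 1 was higher at 25 mM, beside 17.0% of all genes. It was KCNAB3, a potassium channel subunit of this fold (1.45-fold, adjusted p = 0.00486). In the rises limma called 0 of the 3 (0 and 1 at an unadjusted p under 0.05, beside 1246 of 11849 and 1057 of 11422 over all genes).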

How the data were processed

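RNA was measured in 8 libraries of AC16 cells (4 glucose groups of 2). Reads had been aligned with STAR to hg38, per the submitters' processing notes; the counting tool, annotation and gene lengths are not given in the sources used here. The authors deposited RPKM values, 1 table per maintenance glucose. Reads were recovered as whole multiples of the RPKM steps (tolerance 0.01 reads, 100% of genes above 0), with the same gene lengths in both tables and lengths that are multiples of 3 for 83.7% of genes and for all 8 members. For 6 members the length equals a GENCODE coding sequence; for AKR1C2 it equals the union of its coding exons (1023 bases), and for AKR1C3 (1104 bases) it matched no coding length computed here, so their levels against other genes are less certain. A gene was tested if 2 or more libraries of a fit reached 1 RPKM. Tests on log2(RPKM + 1) used limma (version 3.58.1, R 4.3.3; moderated two-sided test with a mean-variance trend, Benjamini-Hochberg over all genes tested, threshold 0.05), the rises on their own 4 libraries and the other comparisons on all 8, across tables deposited separately (highest upper quartile of RPKM 1.065 times the lowest). Folds are 2 to the fitted log2 change and understate changes of low genes. The scripts were tested on simulated data. Positions and promoters come from RefSeq (GRCh38.p14), coding sequences from GENCODE release 29.

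Every member is named, and from each further list up to 4 genes per comparison and direction with the smallest adjusted p among those called, of which part are printed; other genes of the lists were named after their values were seen, as was the CCAAT motif. The members and lists were chosen with earlier results of these data known. Alternatives were the pseudocount, the filter, the scaling, the trend, voom on recovered reads, a joint fit, a replicate block, summed AKR1C genes, and leaving out each library.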

Additional observations from a re-analysis of the deposited data

How the results depend on the processing

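The count of members called from 5 to 50 mM (2) was 0 without a filter and 0 with limma without a trend, and 0 to 4 with 1 library left out. It was 4 without either 5 mM library and 0 without either 5 to 50 mM library; in these fits the spread comes from the group that keeps 2 libraries. With replicate number as a block over all 8 libraries it was also 0 (adjusted p = 0.0668 for AKR1B1 and 0.0665 for AKR1C1), while 6 members stayed called in each comparison between the cultures and 0 in the others. The labels do not say that a number marks a shared batch. Deviations from the group mean correlated at 0.26 between 5 and 25 mM libraries of the same number. Between other groups, deviations of libraries that also had the same number correlated at -0.67 to -0.19. Of 539 refits of single members, 512 kept direction and call, 10 lost a call, 8 gained one and 9 changed sign, all 9 in values that were not called. Given as log2 changes, with the other end of the range over left-out libraries, these were AKR1C1 from 25 to 50 mM (-0.025 without 25 mM replicate 1, range to 0.41), SORD from 25 to 50 mM (-0.01 without 25 mM replicate 3, range to 0.052) and SORD at 50 mM by maintenance (0.038 with median centring, 0.03 with quantile normalization, 0.005 without 5 to 50 mM replicate 1, range to -0.049). The others were the difference between the rises for AKR1A1 (-0.019 with median centring, -0.026 without 5 mM replicate 3, -0.025 without 25 mM replicate 3, range to 0.069) and AKR7A2 (0.027 without 5 mM replicate 3, range to -0.137). Over all genes, calls from 5 to 50 mM went from 39 to between 0 and 805, from 25 to 50 mM from 1 to between 0 and 777, and for the difference from 3 to between 0 and 6. Calls at 25 mM against 5 mM went from 4671 to 3024 without 25 mM replicate 1, and at 50 mM from 4946 to 3177 without 5 to 50 mM replicate 1. Depth limited AKR1B10 and AKR1C2, with 3 to 20 and 6 to 101 reads per library, and AKR1C1 in libraries kept at 25 mM, with 47 to 74 reads.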

Other observations

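Of 13 tested genes that act on steroids and prostaglandins, as the AKR1C enzymes do, 8 were lower and 1 higher at 25 mM than at 5 mM by limma (median log2 difference -0.37, against -0.004 over all genes, of which 22.1% were called lower and 17.0% higher). HSD11B1, which regenerates cortisol, measured 9.44 ± 1.10 RPKM in the 5 mM group and 0.0209 ± 0.0296 RPKM in the 25 mM group (SD, n = 2; adjusted p = 1.11e-06). PTGS2, the inducible cyclooxygenase, averaged 4.41 RPKM in the 5 mM group and 0.276 RPKM in the 25 mM group ( adjusted p = 9.66e-06). STS, steroid sulfatase, was 1.69-fold lower (adjusted p = 0.000194) and SRD5A1, a steroid reductase, 1.48-fold higher (adjusted p = 0.0169). HSD11B1, PTGS2 and PTGS1 reached 1 RPKM only in libraries kept at 5 mM, so that 3 of the 8 lower calls could go only 1 way. From 5 to 50 mM limma called 0 of the 13, and from 25 to 50 mM 0 of 10. An unadjusted p under 0.05 was reached by 1 and 0 of these, beside 1246 of 11849 and 1057 of 11422 over all genes.

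Of 16 tested genes that remove aldehydes and carbonyls by other routes, limma called 0 from 5 to 50 mM and 0 from 25 to 50 mM. An unadjusted p under 0.05 was reached by 6 and 4 of these, beside 1246 of 11849 and 1057 of 11422 over all genes. At 25 mM against 5 mM 6 were lower and 1 higher, beside 22.1% and 17.0% of all genes, with a median log2 difference of -0.10 (-0.004 over all genes). ALDH2, the mitochondrial aldehyde dehydrogenase, was 2.28-fold lower in RPKM + 1 at 25 mM (9.94 ± 0.835 RPKM at 5 mM and 3.80 ± 0.525 RPKM at 25 mM, adjusted p = 0.000336). HAGH, the second enzyme of methylglyoxal removal, was 1.39-fold lower (adjusted p = 0.00913), and ALDH1B1 was 1.22-fold higher (adjusted p = 0.0255).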
